A study of Mus musculus with 12 samples.

Results

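The nuclear Tcf and Lef factors of Wnt signaling, their partner beta-catenin and the feedback genes they induce were followed over the removal of Esrrb, an orphan nuclear receptor of mouse embryonic stem cells. The genes were Lef1, Tcf7, Tcf7l1, Tcf7l2, Ctnnb1, Axin1, Axin2, Sp5, Rnf43 and Tnfrsf19, a list built on their place in the pathway. It was chosen with earlier results of these data known, so its counts beside the shares of all genes are descriptions only. Of these 10 genes, 9 had a probe set that carries a single gene symbol, 1 each, among 19938 such genes on the array. Tcf7 was not analysed here. Esrrb_R is a rescue clone of AINV15 cells, a line with the Dox-dependent transactivator, in which a short hairpin RNA silences endogenous Esrrb throughout and doxycycline (Dox) sustains a copy that resists it. The 4 groups, of 3 biological replicates with 1 Affymetrix Mouse Gene 1.0 ST array each, were day 0 with 1 µg/ml Dox and then 1, 3 and 5 days without it, all in serum with Lif. All groups carry the same hairpin, the line is a single clone, and no array controls for Dox or for time alone, so that the loss of Esrrb, the removal of Dox and time in culture cannot be told apart.

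Wnt ligands act by stopping a destruction complex, built on the scaffolds Axin1 and Axin2, that marks beta-catenin (Ctnnb1) for degradation. Spared beta-catenin enters the nucleus and binds Tcf and Lef proteins, which sit on DNA through a shared high mobility group domain. In mouse embryonic stem cells Tcf7l1, often called Tcf3 in this field, acts mainly as a repressor of pluripotency genes, Esrrb among them, whereas Lef1 and Tcf7 act mainly as activators with beta-catenin. Axin2, Rnf43, Sp5, Tnfrsf19 and Lef1 itself are induced by Wnt signals in many cell types, and several of them dampen the pathway.

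The deposited values are log2 signals, on which a difference of 1 is a doubling, and they compare arrays for 1 gene but do not rank genes against each other. Esrrb had a log2 signal between 11.54 and 11.63 on the arrays of day 0 and between 8.07 and 9.16 on those without Dox, its summed hairpin-resistant and endogenous transcript. All 9 markers of embryonic stem cells examined were measured, and their mean log2 signal per array lay between 12.03 and 12.08 at day 0, 11.89 and 11.93 at day 1, 11.73 and 11.74 at day 3, and 11.51 and 11.57 at day 5. For 10 markers of fibroblasts, the feeder cells on which the line is maintained but which the methods exclude from the experiments, it lay between 7.30 and 7.40 at day 0, 7.28 and 7.29 at day 1, 6.86 and 6.90 at day 3, and 7.11 and 7.30 at day 5. The stem cell markers did not all fall. At an adjusted p under 0.05 from limma, 7 of the 9 were lower at day 5 than at day 0 (17.6% of all genes). Lin28a was higher (0.40), as 17.4% of all genes were, and Sall4 did not pass (0.12). Array medians ran from 6.92 to 7.05. Since cells were measured in bulk, fewer cells with a transcript and less of it per cell cannot be told apart.

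Across the time course 8 of the 9 genes changed by the moderated F test of limma at an adjusted p under 0.05, where 45.6% of all genes did. Axin1 was the exception. At day 1, 2 of the 9 were higher than at day 0, Lef1 and Tnfrsf19, against 6.45% of all genes. The number lower at day 1 was 0, against 4.48% of all genes, which in 9 genes cannot be set apart from that share. It was also 0 at an unadjusted p under 0.05 from limma, for which no share of all genes was taken. At day 3, 4 were higher (Tcf7l1, Tcf7l2, Ctnnb1 and Rnf43; 13.5% of all genes) and 1, Axin2, was lower (13.1% of all genes). At day 5, 6 were higher, namely Tcf7l1, Tcf7l2, Ctnnb1, Sp5, Rnf43 and Tnfrsf19, where 17.4% of all genes were, and 1, Lef1, was lower, where 17.6% were. The median log2 change of the 9 genes from day 0 came to 0.11 at day 1, to 0.14 at day 3 and to 0.39 at day 5, and that of all genes to 0.01, 0.00 and -0.02 at the same days.

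**Figure D1:**
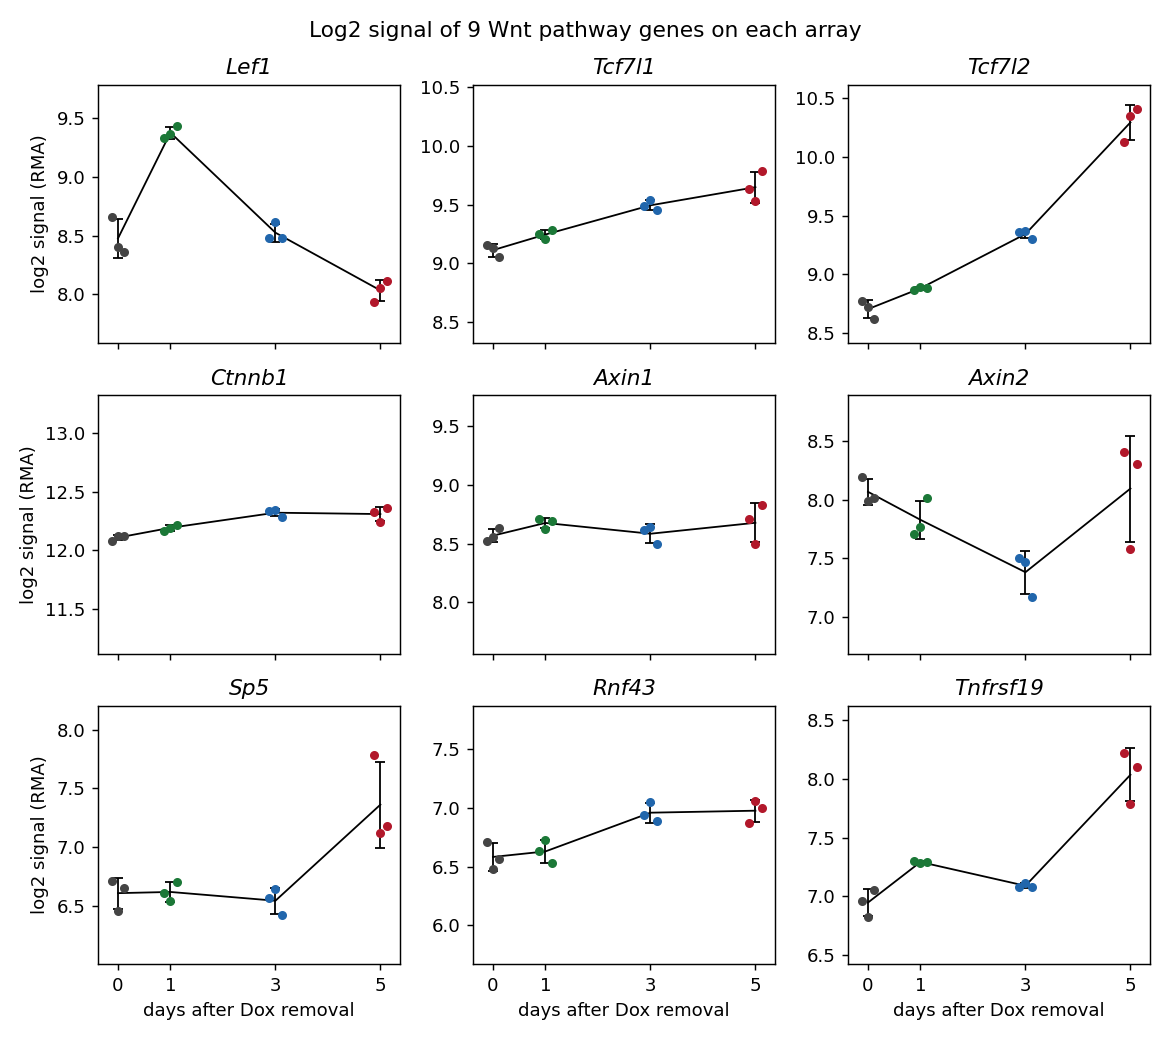
Log2 signal of the 9 genes with 1 point per array and, as line and bars, mean and SD by day, by day of culture without Dox. All panels cover an equal log2 range. Lef1 peaked at day 1 (9.38) and ended below its day 0 level, Tcf7l2 climbed to 10.29 at day 5, Axin2 was lowest at day 3 (7.38), and Axin1 stayed between 8.49 and 8.83 on every array.

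Lef1, an activator among the Tcf and Lef proteins and itself a Wnt target, rose within a day and then fell below where it began. Its log2 signal was 8.66, 8.40 and 8.36 on the day 0 arrays, 9.33, 9.37 and 9.43 at day 1, 8.48, 8.61 and 8.48 at day 3, and 7.94, 8.05 and 8.11 at day 5. All 3 arrays of day 1 lay above, and all 3 of day 5 below, those of every other day, while days 3 and 0 overlapped. At day 1 it was 0.90 above day 0 (SE, the standard error of the fit, 0.08, adjusted p = 1.6e-05 from limma), a 1.87-fold difference. Between days 1 and 5 it fell by 1.34 (SE 0.08, adjusted p = 9.2e-08 from limma), of which 0.85 was lost by day 3, and at day 5 it stood at -0.44 against day 0 (adjusted p = 7.6e-04 from limma). The order of its levels was day 1, then days 3 and 0, then day 5. Days 3 and 0 differed by 0.05, with a 95% interval of the difference from -0.13 to 0.23.

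Tcf7l2 (Tcf4 in older usage), a Tcf that works with beta-catenin in many epithelia, had the largest change of the 9 genes at day 5 and rose in each interval after day 1. Its log2 signal was 8.77, 8.72 and 8.62 at day 0, 8.87, 8.89 and 8.88 at day 1, 9.36, 9.37 and 9.30 at day 3, and 10.13, 10.35 and 10.41 at day 5. The arrays of no 2 days overlapped. The change against day 0 was 0.18 at day 1, which did not pass the test (SE 0.07, adjusted p = 0.15 from limma), 0.64 at day 3 (adjusted p = 2.3e-05) and 1.59 at day 5 (adjusted p = 5.2e-09), the last a 3.01-fold difference. Of this, 0.95 came between days 3 and 5 (SE 0.07, adjusted p = 1.3e-06 from limma). Ranked by the p of the time course, it was number 98 of 19938 genes, and Lef1 was number 447.

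Tcf7l1, the repressing Tcf of embryonic stem cells, rose by a smaller amount. Log2 signals were 9.16, 9.13 and 9.05 at day 0, 9.25, 9.21 and 9.29 at day 1, 9.49, 9.54 and 9.46 at day 3, and 9.63, 9.53 and 9.79 at day 5. Each later day lay above day 0 on every array, while days 3 and 5 overlapped. At day 3 the gene was 0.38 above day 0 (SE 0.07, adjusted p = 8.6e-04 from limma) and at day 5 it was 0.54 above (adjusted p = 3.3e-05), a 1.45-fold difference. The steps from day 0 to day 1 (0.13, adjusted p = 0.26 from limma) and from day 3 to day 5 (0.15, adjusted p = 0.12) did not pass the test, though the step to day 5 did without day 5 replicate 2 (0.22, adjusted p = 0.033). The step from day 1 to day 3 passed (0.25, adjusted p = 0.018 from limma). That call was lost without day 1 replicate 1 (adjusted p = 0.054), day 1 replicate 2 (0.071) or day 3 replicate 2 (0.070).

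Because the 3 factors were read on the same arrays, their balance could be compared array by array, as the difference of 2 log2 signals. Its absolute value has no meaning across genes, but its change between days measures unequal change. Lef1 minus Tcf7l1 averaged 0.13 ± 0.04 on day 1 arrays, -0.97 ± 0.04 on day 3 arrays and -1.62 ± 0.12 on day 5 arrays, against -0.64 ± 0.13 at day 0 (SD, n = 3 arrays each). The balance thus moved by 0.77 toward Lef1 at day 1 and by -0.98, toward Tcf7l1, at day 5, and on no array of days 1, 3 or 5 did it overlap day 0. Tcf7l2 minus Tcf7l1 averaged -0.37 ± 0.05 on day 1 arrays, -0.15 ± 0.01 on day 3 arrays and 0.64 ± 0.16 on day 5 arrays, against -0.41 ± 0.03 at day 0 (SD, n = 3 arrays each), so that Tcf7l2 gained 1.05 on Tcf7l1 by day 5. An exact two-sided permutation test over 3 against 3 arrays cannot give a p below 0.1. That smallest p was reached for Lef1 minus Tcf7l1 at each day and for Tcf7l2 minus Tcf7l1 at days 3 and 5 (exact p = 0.1, adjusted p = 0.13 over 9 comparisons), and not for Tcf7l2 minus Tcf7l1 at day 1 (exact p = 0.2, adjusted p = 0.23).

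**Figure D2:**
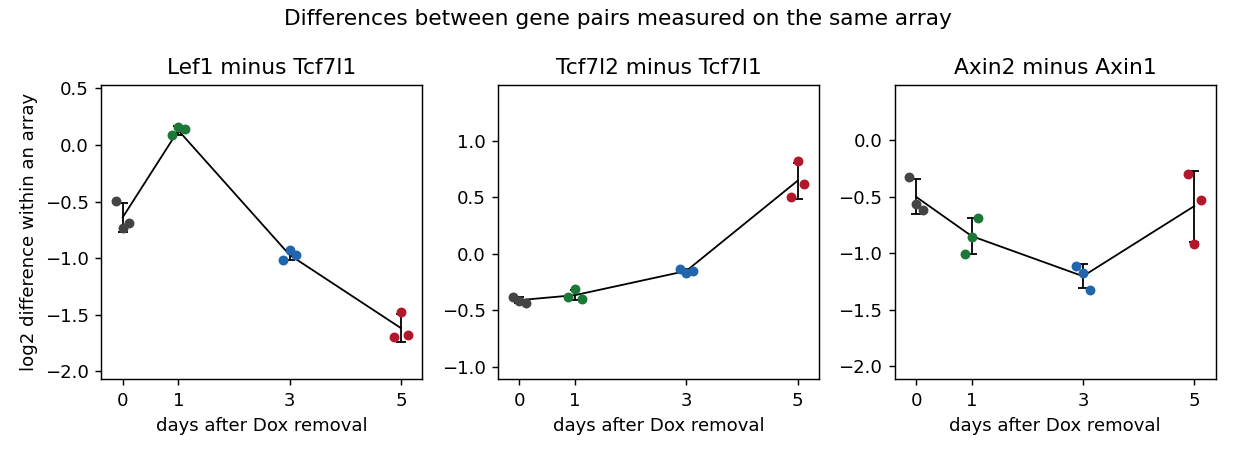
Within-array log2 differences of Lef1 minus Tcf7l1, Tcf7l2 minus Tcf7l1 and Axin2 minus Axin1 (points, 1 per array) with the mean and SD of each day, against days after removal of Dox. Lef1 minus Tcf7l1 was highest at day 1 (0.13) and lowest at day 5 (-1.62), while Tcf7l2 minus Tcf7l1 was highest at day 5 (0.64).

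Ctnnb1 encodes beta-catenin, which is controlled chiefly through its stability and also joins cadherins to the cytoskeleton. Its transcript changed little. The log2 signal was 12.08, 12.13 and 12.12 at day 0, 12.17, 12.19 and 12.22 at day 1, 12.33, 12.35 and 12.28 at day 3, and 12.33, 12.24 and 12.36 at day 5. Days 3 and 5 overlapped each other and lay above both earlier days on every array. At day 3 it was 0.21 above day 0 (SE 0.05, adjusted p = 0.0076 from limma) and at day 5 it was 0.20 above (adjusted p = 0.0077), 1.16-fold and 1.15-fold differences. Day 1 differed from day 0 by 0.08 (adjusted p = 0.37 from limma). The call at day 3 was lost when each array was centred on its median (0.18, adjusted p = 0.083). These arrays do not measure the protein.

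Of the 2 scaffolds of the destruction complex, Axin2 changed and Axin1 did not pass the test. Axin1, the constitutive scaffold, had log2 signals of 8.52, 8.55 and 8.63 at day 0, 8.71, 8.62 and 8.69 at day 1, 8.61, 8.64 and 8.49 at day 3, and 8.71, 8.50 and 8.83 at day 5. All days overlapped day 0, and the time course did not pass the test (moderated F of limma, adjusted p = 0.49). The 95% interval of the day 5 difference from day 0 ran from -0.06 to 0.28, and only without day 5 replicate 2, of the 12 arrays left out in turn, did that difference pass (0.20, adjusted p = 0.042 from limma).

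Axin2, the Wnt-induced scaffold that feeds back on the pathway, fell by day 3 and stood near its starting level at day 5. Its log2 signal was 8.19, 7.99 and 8.01 at day 0, 7.70, 7.77 and 8.01 at day 1, 7.50, 7.47 and 7.17 at day 3, and 8.40, 7.58 and 8.30 at day 5. The day 3 arrays lay below those of every other day. Day 5 replicate 2 stood well below the other arrays of its day, and the SD at day 5 was 0.45. At day 3 Axin2 was 0.68 lower than at day 0 on the log2 scale (change -0.68, SE 0.18, adjusted p = 0.011 from limma), which day 3 replicate 3 decided (-0.58 and adjusted p = 0.053 when it was left out). From day 3 to day 5 it rose by 0.71 (SE 0.18, adjusted p = 0.0093 from limma), and by 0.97 without day 5 replicate 2. The day 3 difference of -0.45 from day 1 missed the threshold (adjusted p = 0.098) and passed when day 5 replicate 2 was left out (adjusted p = 0.0084). Day 5 against day 0 gave 0.03, with a 95% interval from -0.35 to 0.41, and day 5 against day 1 gave 0.27 (adjusted p = 0.29), which became 0.53 (adjusted p = 0.0039) without day 5 replicate 2. Axin2 minus Axin1 averaged -0.85 ± 0.16 on day 1 arrays, -1.20 ± 0.11 on day 3 arrays and -0.58 ± 0.31 on day 5 arrays, against -0.50 ± 0.15 at day 0 (SD, n = 3 arrays each; exact two-sided permutation p = 0.1, 0.1 and 0.9, adjusted over 9 comparisons 0.13, 0.13 and 0.90). Fibroblast markers also reached their lowest level at day 3. There 6 of 10 were lower than at day 0 (13.1% of all genes) and 1, Thy1, was higher (13.5% of all genes). Lum, Pdgfrb and Twist2 did not pass at day 3. Col1a1 was at 8.45 ± 0.03 at day 3 against 9.43 ± 0.18 at day 0, and Col1a2 at 8.10 ± 0.08 against 9.54 ± 0.16 (SD, n = 3 each). At day 5 Col1a1 was at 9.41 ± 0.24 and Col1a2 at 9.34 ± 0.18. Against day 0, Prrx1, a mesenchymal factor of the same list, was then still at -1.27, and Twist2 was at 0.43. The part of such cells in the course of Axin2 was not tested.

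Sp5 and Tnfrsf19, both Wnt target genes, rose late. Sp5, a zinc finger factor that represses other Wnt target genes in embryonic stem cells, had log2 signals of 6.71, 6.46 and 6.65 at day 0, 6.61, 6.54 and 6.71 at day 1, 6.57, 6.64 and 6.42 at day 3, and 7.78, 7.12 and 7.18 at day 5. The first 3 days overlapped, and every day 5 array lay above all of them. It was 0.75 above day 0 at day 5 (SE 0.14, adjusted p = 9.3e-04 from limma), and 0.54 above (adjusted p = 6.1e-04) without day 5 replicate 1, its highest array. Tnfrsf19, also called Troy, a receptor of the tumor necrosis factor family that marks stem cells in several epithelia, had 6.96, 6.82 and 7.05 at day 0, 7.30, 7.28 and 7.30 at day 1, 7.08, 7.11 and 7.08 at day 3, and 8.22, 7.78 and 8.10 at day 5. The arrays of no 2 days overlapped, and those of day 5 stood highest. At day 5 it was 1.09 above day 0 (SE 0.09, adjusted p = 1.1e-06 from limma), a 2.13-fold difference, of which 0.95 came after day 3 (adjusted p = 1.1e-05). The rise of 0.35 at day 1 passed (adjusted p = 0.032 from limma), but not without day 0 replicate 1 (adjusted p = 0.078), day 0 replicate 2 (0.12) or any 1 of the day 1 replicates 1, 2 and 3 (0.090, 0.081 and 0.094), nor with all probe sets tested (0.078). Day 3 did not differ from day 0 beyond the test (0.14, adjusted p = 0.32), and its difference of -0.20 from day 1 passed only when day 5 replicate 2 was left out of the fit or arrays were weighted (adjusted p = 0.16 with all arrays equal, 0.039 without that array and 0.046 with weights).

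The start regions of these genes were searched for the letters CTTTGAA and CTTTGAT on both strands, the core that Tcf and Lef proteins bind. RefSeq windows of 300 bases (250 before and 50 after a start, build GRCm38.p6) were at hand for 9 of the 10 genes, Tcf7 included and Axin1 not, 17 windows in all. A match stood in 2 of the 17, where 8.65% of 32851 windows of all genes held one. The single window of Axin2 and both windows of Tcf7l2, which rose between days 3 and 5 as well, held none. The 2 windows with a match are shown 5′ to 3′ on the strand of the gene with the match in capitals. That of Sp5 (chr2:70474673-70474972, plus strand) has CTTTGAT beginning 104 bases before the start, and that of a second start of Tnfrsf19 (chr14:61037938-61038237, minus strand) has its reverse complement beginning 202 bases before. The letters AAGGTCA, the core of the site that Esrrb binds, stood in 1 of the 17 windows, a start of Tcf7, and in 4.72% of all windows. In 17 windows neither number of matches can be set apart from its share of all windows. A match describes the letters and not a bound site, and its absence says nothing of sites elsewhere.

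Sp5: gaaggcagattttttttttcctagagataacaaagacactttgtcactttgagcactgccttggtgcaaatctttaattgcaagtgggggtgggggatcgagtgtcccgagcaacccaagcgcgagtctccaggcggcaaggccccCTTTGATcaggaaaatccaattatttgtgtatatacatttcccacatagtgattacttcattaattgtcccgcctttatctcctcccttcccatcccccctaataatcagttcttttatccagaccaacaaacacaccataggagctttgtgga
Tnfrsf19: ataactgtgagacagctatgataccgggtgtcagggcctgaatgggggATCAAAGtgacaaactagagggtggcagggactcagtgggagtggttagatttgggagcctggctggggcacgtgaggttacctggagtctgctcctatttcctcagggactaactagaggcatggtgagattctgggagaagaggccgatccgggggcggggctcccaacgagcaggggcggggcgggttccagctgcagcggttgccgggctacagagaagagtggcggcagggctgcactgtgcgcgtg

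Rnf43, a ubiquitin ligase that removes Wnt receptors from the cell surface, rose between days 1 and 3 and then held. Log2 signals were 6.71, 6.48 and 6.56 at day 0, 6.63, 6.73 and 6.53 at day 1, 6.93, 7.05 and 6.89 at day 3, and 6.87, 7.06 and 7.00 at day 5. Days 0 and 1 overlapped, as did days 3 and 5, and every later array exceeded every earlier one. The change against day 0 was 0.38 at day 3 (SE 0.08, adjusted p = 0.0030 from limma) and 0.39 at day 5 (adjusted p = 0.0015), a 1.31-fold difference. Days 5 and 3 differed by 0.02, with a 95% interval from -0.15 to 0.19. No detection call was at hand for any of the 9 genes.

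**Figure D3:**
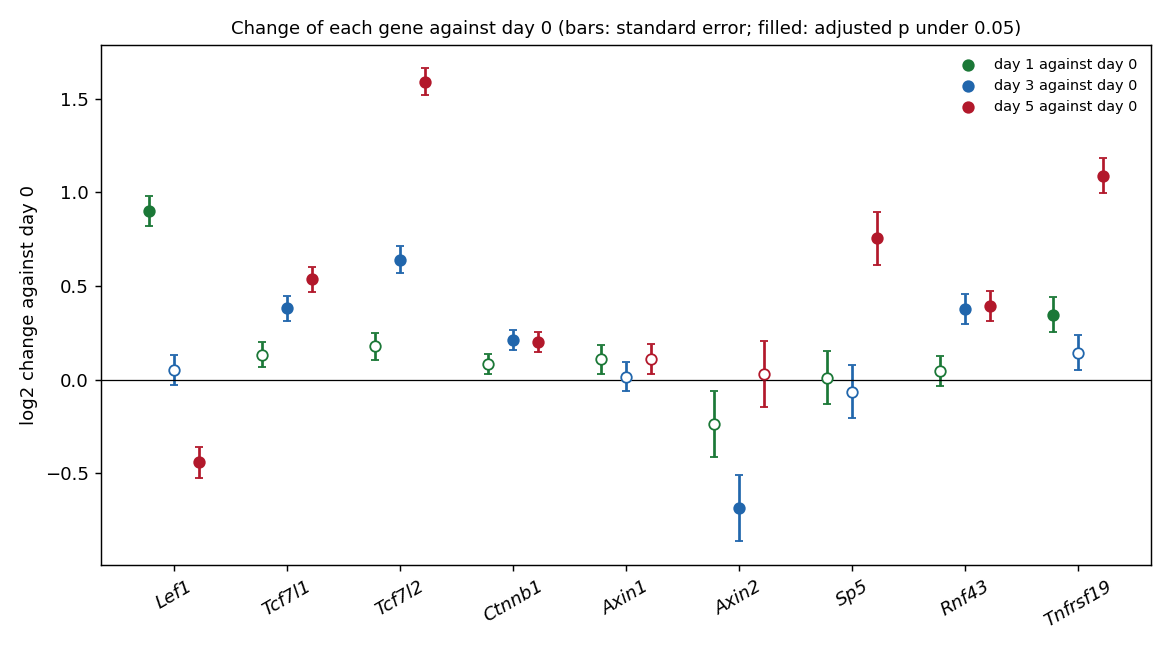
Log2 change of the 9 genes at day 1, day 3 and day 5, each against day 0 (points, left to right for each gene) with the SE from limma. Filled points have an adjusted p under 0.05. At day 5 Tcf7l2 (1.59), Tnfrsf19 (1.09) and Sp5 (0.75) lay highest and Lef1 (-0.44) was below 0, while Axin2 passed the test at day 3 only (-0.68).

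The later days were also compared with each other. From day 1 to day 3, 3 of the 9 rose, Tcf7l1, Tcf7l2 and Rnf43, where 9.2% of all genes did, and Lef1 fell, where 11.6% did. From day 3 to day 5, 4 rose, Tcf7l2, Axin2, Sp5 and Tnfrsf19, where 13% of all genes did, and Lef1 fell again, where 12.2% did. Day 5 against day 1, both without Dox, gave 5 higher, Tcf7l1, Tcf7l2, Sp5, Rnf43 and Tnfrsf19, and Lef1 lower, against 15.5% and 17.5% of all genes. The difference in this last comparison does not take in the arrays with Dox, which enter only the shared estimate of the spread. The 3 comparisons with day 0 share its 3 arrays.

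Genes whose course over the 12 arrays most resembled each of the 6 genes with day means spanning at least 0.5 log2 units were sought among 18259 genes, those left once clone and model symbols were set aside, with Pearson's r over the 12 arrays as the measure. Points of 1 day share their condition, and r is a description. Lef1 was most like Rarg (r = 0.98), a retinoic acid receptor, followed by Surf6 and Mmd2 (0.97 each). Rarg stood 0.67 above day 0 at day 1, 0.14 at day 3 and -0.20 at day 5. Tcf7l1 was most like Sox11, Epha7 and Pbx3 (0.98 each), and Tcf7l2 like Plat, the tissue plasminogen activator, with Adam10 and Ptpn21 (0.99 each). Plat had a change of 2.93 at day 5. Sp5 was most like Bmp7, Septin4 and Efemp1 (0.95 each), and Tnfrsf19 like Tnfrsf1a, Wnt8a and Meis3 (0.98 each). Axin2 had the loosest company, Fut4 and Zdhhc5 (0.92 each) and Eomes (0.91), a T-box factor that was at -0.71 against day 0 at day 3 and at 0.39 at day 5.

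Among 15 other genes that Wnt signals induce in various tissues, 4 were higher and 1 lower at day 1, and 1 was higher and 4 lower at day 3. Over all genes the shares called were, for higher and then lower, 6.45% and 4.48% at day 1, 13.5% and 13.1% at day 3, and 17.4% and 17.6% at day 5, against which this list and the next ones are to be read. Ccnd1, a cyclin of the early cell cycle, rose by 0.51 (SE 0.07, adjusted p = 7.4e-04 from limma), Dkk1, a secreted Wnt antagonist, by 0.48 and the growth factor-responsive gene Myc by 0.48 at day 1, on the day of the Lef1 peak, with Ascl2 at 0.25, while Apcdd1 was lower (-0.26). At day 3 Dkk1 was at -0.74 (adjusted p = 5.3e-06 from limma), Myc at -0.60, Notum, an enzyme that inactivates Wnt ligands, at -0.42 and Apcdd1 at -0.24, and Nkd2, an inhibitor that binds Dishevelled, was higher (0.52). At day 5, 1 was higher, Sp8, a relative of Sp5 (0.73, adjusted p = 6.5e-04 from limma), and 3 were lower, Notum, Dkk1 and Apcdd1, a count of lower genes near the share of all genes. The median log2 change of the 15 was 0.12, -0.02 and -0.12 at days 1, 3 and 5.

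The nuclear partners of Tcf and beta-catenin were called in both directions, at days 1 and 3 in numbers near the shares of all genes. Of 23, day 1 had 1 higher and 1 lower, day 3 had 3 higher and 2 lower, and day 5 had 6 higher and 5 lower (median -0.10). In a list of 23 genes the day 5 numbers, too, cannot be set apart from the shares of all genes, 17.4% and 17.6%. Ctnnbip1, an inhibitor of the binding of beta-catenin to Tcf, was the gene higher at day 1 (0.26). At day 3 Ctnnbip1 (0.20), Bcl9 (0.27) and the corepressor Ctbp1 (0.25) were higher, and Tle6 (-0.37) and Tle5 were lower. Tle5, a short Groucho-related protein, had the largest change of the list, -0.44 at day 1, -1.01 at day 3 and -1.21 at day 5 (SE 0.07, adjusted p = 0.0014, 3.7e-07 and 3.9e-08 from limma). It averaged 7.93 ± 0.05 at day 5 against 9.14 ± 0.12 at day 0 (SD, n = 3 each). The Groucho corepressors, which Tcf proteins recruit when beta-catenin is absent, changed in both directions at day 5. Tle1 (0.37) and Tle3 (0.40) were higher and Tle4 (-0.47) was lower, while Tle2 did not pass (-0.08). Tle6, a Groucho-related gene, was also lower (-0.51). Bcl9l and Bcl9, which link beta-catenin to its coactivators, were 0.53 (adjusted p = 1.6e-05 from limma) and 0.37 above day 0 at day 5, Ctbp1 was 0.45 above and Ctnnbip1 0.42 above. Cdc73, of a complex that elongating polymerase carries, and Cby1, which competes with Tcf for beta-catenin, were lower (-0.23 and -0.27).

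In the destruction complex and its regulators, 15 genes, day 1 had 2 lower, day 3 had 4 higher and 1 lower, and day 5 had 7 higher and 4 lower (median 0.19). Over all genes 4.48% were lower at day 1, 13.5% higher and 13.1% lower at day 3, and 17.4% higher and 17.6% lower at day 5. In a list of 15 genes the numbers lower at days 3 and 5 are too small to set apart from those shares. Csnk1e, a casein kinase that acts on Dishevelled, was at -0.66 at day 1 (SE 0.06, adjusted p = 2.1e-05 from limma), -0.46 at day 3 and -0.31 at day 5, and its relative Csnk1a1, which primes beta-catenin, was at -0.17 at day 1. Gsk3b, the kinase that marks beta-catenin, rose by 0.34 at day 5 (adjusted p = 0.0013 from limma), Csnk1d by 0.31, and the tankyrases Tnks and Tnks2, which promote degradation of Axin proteins, by 0.29 and 0.24. Also higher at day 5 were Dvl3 (0.28), Fbxw11 (0.25) and Amer1 (0.21), and also lower were Apc (-0.17), a scaffold of the complex, Dvl2 (-0.16) and Btrc (-0.15), part of the ligase that ubiquitinates beta-catenin. At day 3 the genes higher were Amer1 (0.43), Tnks2 (0.29), Dvl1 (0.21) and Csnk1d (0.15). Changes in this list were below 0.5 in size at days 3 and 5. Of 7 cadherin partners of beta-catenin, 4 were higher at day 5, namely Cdh1, or E-cadherin (0.33), Ctnnd1 (0.38), Jup (0.33) and Cdh2 (0.29), and Ctnnal1 was lower (-0.83), with a median of 0.29. At day 3 Cdh1 was higher (0.32) and Ctnnal1 (-0.50) and Ctnna1 (-0.19) were lower, and at day 1 Ctnna1 alone was called (-0.22).

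Of 6 genes that Tcf7l1 represses in mouse embryonic stem cells, Esrrb included, 5 were lower at day 1 and all 6 at days 3 and 5. Esrrb, the depleted gene, is 1 of them, and its fall was set by the design and is no result of the list. The study also ranks Nanog among the high confidence targets of Esrrb itself. Tcf7l1 had no called change at day 1 (0.13, adjusted p = 0.26 from limma). Whether Tcf7l1 or the loss of Esrrb lowered these genes was not tested. Nr0b1 was at -0.998, -2.84 and -3.05 at days 1, 3 and 5, Tfcp2l1 at -1.70, -2.30 and -1.74, and Tbx3 at -0.69, -1.52 and -1.56 (adjusted p at most 1.7e-04 from limma). Nanog was at -0.80 at day 1, -0.62 at day 3 and -0.25 at day 5 (adjusted p = 0.0063 from limma at day 5). Klf2 passed at day 3 (-0.24) and day 5 (-0.31) but not at day 1 (0.22, adjusted p = 0.058). From day 3 to day 5 Nanog (0.37) and Tfcp2l1 (0.56) rose and 0 of the 6 fell, where 13% of all genes rose and 12.2% fell. The list, Esrrb included, had a median change of -0.90 for day 1, -1.91 for day 3 and -1.65 for day 5. With Esrrb left out, the median was the value of Nanog at day 1 (-0.80) and of Tbx3 at days 3 (-1.52) and 5 (-1.56).

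**Figure D4:**
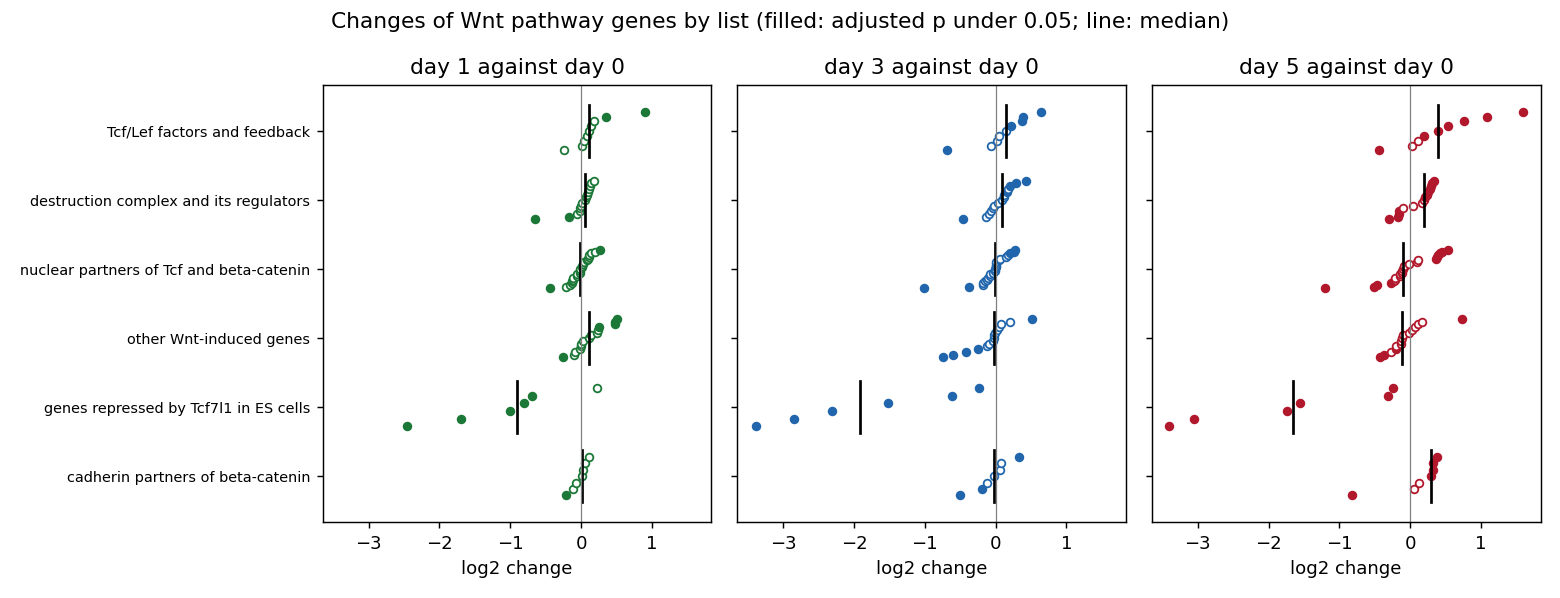
Log2 change against day 0 at day 1, day 3 and day 5 for the 9 genes and 5 lists of Wnt pathway genes (1 point a gene, filled at an adjusted p under 0.05 from limma, vertical line at the median of the list). The median of the genes repressed by Tcf7l1, the depleted Esrrb included, lay at -0.90, -1.91 and -1.65. The medians of the other 4 pathway lists stayed between -0.12 and 0.29.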

How the data were processed

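The arrays were processed by the authors with the Robust Multichip Average in Affymetrix Expression Console (version not given in the sources used here), and the deposited values are log2 signals from 1.61 to 14.69 for 35557 probe sets on 12 arrays. GEO's annotation of the platform supplied the names of probe sets. Of them 21789 carried 1 symbol, 1621 several and 12147 none. All 93 genes of the lists used here were found in a RefSeq table of assembly GRCm38.p6 under the same symbol. Probe sets with 1 symbol were averaged per gene, giving 19938 genes, without a further normalization. There is no read depth on an array, so precision is limited by how many there are.

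A limma 3.58.1 model (lmFit and eBayes, R 4.3.3) was fitted to all genes with a mean per day, 8 residual and 4.63 prior degrees of freedom, 6 contrasts between days and a moderated F test of the 3 contrasts against day 0. All p-values received a Benjamini-Hochberg adjustment across the 19938 genes and calls were made at 0.05. In data simulated for the 19938 genes, 67 were given a log2 change of 0.5, 67 a change of 1 and 66 a change of 2. At day 5, 80.6% of those given 0.5 and 97% of those given 1 were found, with 11 false calls. Far fewer genes changed there than were called in the data (17.4% higher and 17.6% lower at day 5). The recovery and the number of false calls therefore do not carry over. Differences of paired genes were tested by exact permutation over arrays. The pairs with Tcf7 were not run. Any called gene of a list could be named, those with the 4 smallest p per list and day and those of the opposite direction first, and further genes by likeness (the 3 genes with the highest r). Members and lists were chosen with earlier results of these data known. Same-numbered arrays of different days did not deviate together (r from -0.17 to 0.07 in 18 pairs). In 36 pairs with unlike numbers r ran from -0.13 to 0.18, highest for day 0 replicate 2 with day 3 replicate 1. Whether arrays with unlike numbers share an origin was not tested. Alternatives were the replicate number as a block, quantile normalization, median centring, the brightest probe set, all probe sets, leaving out the dimmest 25% of genes, a trended robust variance, array weights, each array left out in turn and the one-way analysis of variance of the methods. Tables and plots were made with Python 3.11.15, pandas 2.3.3 and matplotlib 3.10.9.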

Additional observations from a re-analysis of the deposited data

How the results depend on the processing

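Of 54 differences between days for single genes, 29 passed the test, and 25 of these kept their direction and their call under every alternative limma fit. The analysis of variance of the methods tests the whole time course, not single differences, and is not part of this count. None of the 29 turned. The other 4 calls, given beside their genes, were lost under 1 or more alternatives, Tnfrsf19 at day 1, Axin2 at day 3, Ctnnb1 at day 3 and Tcf7l1 from day 1 to day 3. The replicate numbers share no origin that the sources give, and with the number as a block no call of the 9 genes changed, with 2 genes higher at day 1, 4 at day 3 and 6 at day 5 (replicate block). This block cannot take up a difference shared by arrays with unlike numbers.

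With 1 array left out in turn, the genes called higher at day 1 numbered 1 to 2, those lower at day 3 numbered 0 to 1, and those lower at day 3 against day 1 numbered 1 to 3, the most without day 5 replicate 2. Over the 5 pathway lists together, 3 to 7 genes were higher at day 1 (5 with all arrays, 3 without day 1 replicate 1 or 3) and 5 to 9 at day 3 (9 with all arrays, 5 without day 3 replicate 1 or 2). With all probe sets tested, 1 gene was higher at day 1 and 5 genes of the 5 lists at day 3. With each array centred on its median, 2 genes were lower at day 3 against day 1 and 4 genes of the lists were higher at day 3, and with array weights 3 were lower at day 3 against day 1. The one-way analysis of variance of the methods, with Bonferroni correction and a total change over 2-fold, kept 2 of the 8 genes, Lef1 and Tcf7l2. Over all 19938 genes it called 420. The cause of these shifts was not tested.

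Differences close to 0 that never passed changed sign. Quantile normalization gave -0.0002 for Axin1 at day 3, -0.0231 for Axin1 at day 5 against day 1 and -0.0407 for Axin2 at day 5. Median centring gave -0.0177 for Axin1 at day 3 and 0.0709 for Ctnnb1 at day 5 against day 3. Array weights gave -0.0115 for Lef1 at day 3, -0.0248 for Sp5 at day 1 and 0.0033 for Ctnnb1 at day 5 against day 3. Without single arrays the ranges were -0.0134 to 0.0611 for Axin1 at day 3, -0.0747 to 0.0914 for Axin1 at day 5 against day 1, -0.127 to 0.287 for Axin2 at day 5, -0.0355 to 0.0208 for Ctnnb1 at day 5 against day 3, -0.0066 to 0.144 for Lef1 at day 3, -0.0059 to 0.109 for Rnf43 at day 1, -0.0248 to 0.0688 for Rnf43 at day 5 against day 3 and -0.0648 to 0.0624 for Sp5 at day 1.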
